A study of Mus musculus with 8 samples.

Results

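The genes described here carry the insulin signal to glucose uptake in muscle, together with the energy sensor AMPK and the growth branch that ends in mTORC1. They are the genes of a list of 34 symbols, matched by name to the non-control probes of a mouse microarray. Of these 34 genes, 33 had at least 1 probe and all 33 were tested, among 16016 genes tested in all. The level of Irs2 was not analysed here. The rule uses gene names only and no measured value, although the list was put together with earlier results of these data known.

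RNA was taken from 1 muscle, the tibialis anterior of the shin, which is made mostly of fast fibres. The animals were 8 weeks old, male and on a C57BL/6 background: 4 Prep1deltaSM mice, with Prep1 ablated in skeletal muscle, and 4 Prep1f/+ mice. The Prep1f/+ name reads as 1 floxed and 1 wild-type allele, while the design text calls the controls Prep1 flox mice, and neither text names the promoter that drives the ablation. Each mouse gave 1 single-colour Agilent array, and both genotypes had 1 array on every one of the 4 slides. The question is which transcripts of the pathway differ in muscle that lacks Prep1, the protein product of Pknox1, a homeodomain transcription factor that binds DNA together with Pbx proteins. As background, mice with low Prep1 have been reported to be more sensitive to insulin.

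Insulin binds its receptor on the muscle fibre, and the receptor phosphorylates docking proteins of the Irs family, which recruit PI3-kinase. The lipid made by PI3-kinase brings Akt to the membrane, where Pdpk1 activates it. Akt then switches off the Rab GTPase-activating proteins Tbc1d4 and Tbc1d1, which releases vesicles that carry the glucose transporter GLUT4 to the surface, and it inhibits glycogen synthase kinase 3 and the Tsc1-Tsc2 brake on mTORC1. AMPK, which senses falling energy charge during contraction, reaches the same vesicles by a separate route. Much of this control acts on protein phosphorylation and location, which a transcript array does not measure.

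The probes behind the largest or most discordant differences are printed first, because different probes of 1 gene did not always give the same answer. Letters are those of the array files, 5′ to 3′, positions are in mm9, and some probes are shown whole and others by their first 30 bases. Whether each lies in coding sequence or in a UTR is not annotated in the files; a span above 60 bases means that the probe crosses an intron. The 3 probes of Rac1 and Cbl used below are these.
Cbl, chr9:43958124-43958183, minus strand: catccatctacagtatttagttatcattca
Rac1, chr5:144266757-144266816, minus strand, brighter probe: ttttttggtagctcagtagaagtgcgtcct
Rac1, chr5:144275590-144275649, minus strand, dimmer probe: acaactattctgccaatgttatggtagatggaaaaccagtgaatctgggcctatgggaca

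For the insulin receptor, Akt2 and the AMPK catalytic subunit Prkaa1, both detected probes are shown, since Insr and Akt2 had probes that differed in size of response and both Prkaa1 probes gave like differences. For Gsk3b the probe used in the test is given.
Insr, chr8:3151667-3151726, minus strand, brighter probe: cagattctagctaatgaattcttgacaaca
Insr, chr8:3159473-3159532, minus strand, dimmer probe: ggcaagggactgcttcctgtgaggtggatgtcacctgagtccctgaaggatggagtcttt
Akt2, chr7:28423859-28423918, plus strand, brighter probe: ggaagccaaccttggctgttacacatctca
Akt2, chr7:28421973-28422113, plus strand, dimmer probe: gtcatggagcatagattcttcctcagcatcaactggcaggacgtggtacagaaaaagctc
Prkaa1, chr15:5131426-5131485, plus strand, brighter probe: atttctcatgaaaggaacttttctaccaag
Prkaa1, chr15:5127150-5128691, plus strand, dimmer probe: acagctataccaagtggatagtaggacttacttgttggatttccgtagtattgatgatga
Gsk3b, chr16:38187987-38191632, plus strand: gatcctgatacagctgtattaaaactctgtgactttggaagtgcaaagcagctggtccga

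The dimmest of the 4 Rab10 probes is shown beside the brightest, because it gave the largest positive difference of any detected probe of these genes.
Rab10, chr12:3247758-3247817, minus strand, brightest probe: gactgacagttttgttgtttgcataattat
Rab10, chr12:3307092-3307151, minus strand, dimmest probe: ttctgacaattcttagtccagctcatactt

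All values below are log2 signals relative to the 75th percentile of the same array, so 0 is a bright probe and -3 a dim one, and a level of 1 probe cannot be set against that of another. A gene is represented by its brightest detected probe, and all 33 of these were well above background on all 8 arrays. Differences are Prep1deltaSM minus Prep1f/+ on this log2 scale, with the standard error from limma, and adjusted p-values are Benjamini-Hochberg over all 16016 genes. Spots well above background numbered 24888 to 27123 on the Prep1deltaSM arrays and 23787 to 26764 on the Prep1f/+ arrays. Along the first principal component of all genes, which held 24.4% of the variance, Prep1f/+ muscles 1 and 4 lay at 23.6 and 41.0, while the 6 other muscles lay between -17.1 and 3.08; values without these 2 muscles are given beside several results and together after the last role group. The 10 fast-fibre markers were well above background on all arrays. So were the 9 slow-fibre markers, so detection alone does not mark the tissue as fast muscle. Because this is bulk tissue, fewer cells of a type and less RNA per cell cannot be told apart.

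Pknox1, the ablated gene, had signals of -1.84, -2.08, -2.28 and -1.96 in Prep1deltaSM muscle, against -0.09, -0.31, -0.21 and -0.51 in Prep1f/+ muscle. The difference of -1.76 ± 0.13 had an adjusted p of 0.0072 by limma and did not overlap between groups, in the direction that the labels give. Its adjusted p rose above 0.05 with the slide in the model (0.062) and with both Prep1f/+ muscles that stand apart left out (0.0605).

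None of the 33 genes passed an adjusted p of 0.05 (limma), where Pknox1 alone did among all genes (0.00624% called); the lowest adjusted p of the set was 0.119. An unadjusted p under 0.05 was found for 6 of the 33 genes (18.2%), beside 15.9% of all genes. Of these, 4 were higher and 2 lower, where 5.54% of all genes were higher and 10.4% lower at that threshold. The 2 groups did not overlap for 4 of the 33 genes, 12.1%, beside 10.5% of all genes. Cbl and Insr lay wholly above (3.72% of all genes did) and Rac1 and Prkaa1 wholly below (6.74% of all genes did). In all, 19 of 33 differences were above 0, beside 37.3% of all genes, and the median difference was 0.03 for the set and -0.07 for all genes. The share with p under 0.05 thus lay near that of all genes, and the split by sign leaned the other way from that of all genes. With Prep1f/+ muscle 4 left out, 15 of 33 were above 0, and the median was -0.03 for the set and -0.08 for all genes; with Prep1deltaSM muscle 3 left out, 16 of 33 were above 0. Against the median of all genes, 22 of the 33 lay above it with all muscles, 21 without Prep1f/+ muscle 4, and 18 without Prep1f/+ muscles 1 and 4.

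**Figure D1:**
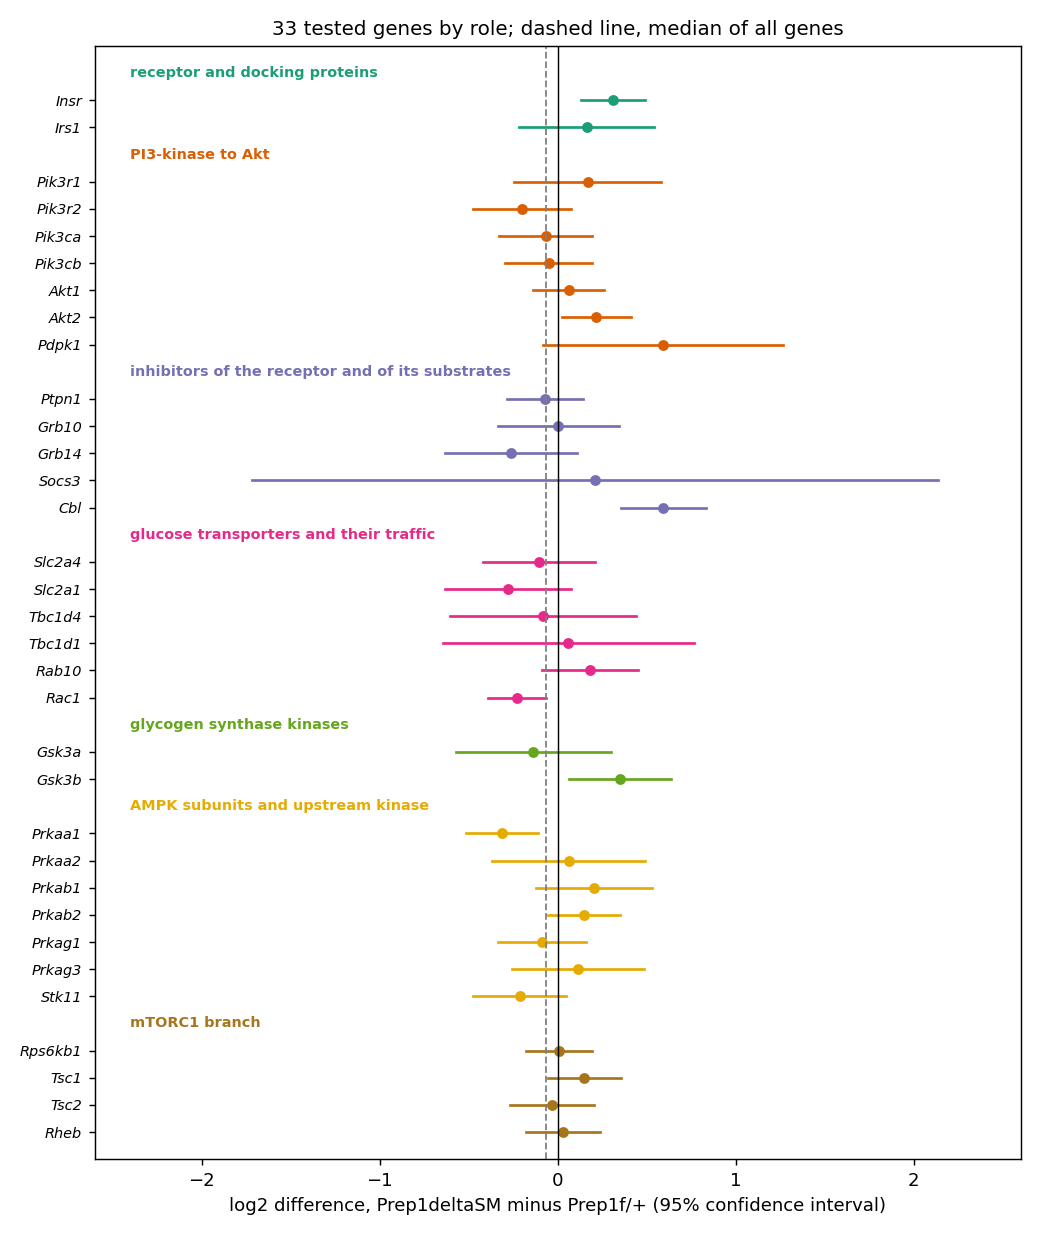
Differences (Prep1deltaSM minus Prep1f/+, log2) of the 33 tested genes by role, as points with their 95% confidence intervals; the solid line is 0 and the dashed line is the median of all genes, -0.07. The intervals of Cbl, Insr, Akt2, Gsk3b, Prkaa1 and Rac1 exclude 0, before any adjustment over genes, and that of Socs3 is the widest.

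At the top of the pathway, Insr and Irs1 both had differences above 0, and the groups overlapped for Irs1. Insr, the insulin receptor, had signals of 0.90, 0.84, 0.77 and 0.80 in Prep1deltaSM muscle, against 0.58, 0.53, 0.56 and 0.40 in Prep1f/+ muscle. Every Prep1deltaSM muscle lay above every Prep1f/+ muscle, by 0.31 ± 0.08, or 1.24-fold. Such a separation fixes the sign on each of the 4 slides, so the slides add no further support. It also fixes the exact two-sided permutation p at 0.0286, the smallest that 70 assignments can give. The adjusted p by limma was 0.172. It was lower, 0.121, with quantile normalization between arrays, and 0.055 with the background correction normexp followed by quantile normalization. It was higher, 0.243, with median centring, 0.247 with the slide in the model and 0.463 with no filter on dim probes. The second Insr probe, printed above, gave 0.12 ± 0.22 with overlapping groups, or 0.46 with Prep1f/+ muscles 1 and 4 left out. The mean of both probes gave 0.21 (adjusted p = 0.417 by limma).

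Irs1, the docking protein that couples the receptor to PI3-kinase in muscle, had signals of 4.93, 5.32, 5.15 and 5.36 in Prep1deltaSM muscle, against 4.76, 4.89, 5.01 and 5.45 in Prep1f/+ muscle. The groups overlapped, Prep1f/+ muscle 4 was the highest of all 8, and the difference was 0.16 ± 0.17 (adjusted p = 0.648). Without that muscle it was 0.30, and without Prep1f/+ muscle 1 it was 0.07. The other Irs1 probe gave 0.37 ± 0.17.

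**Figure D2:**
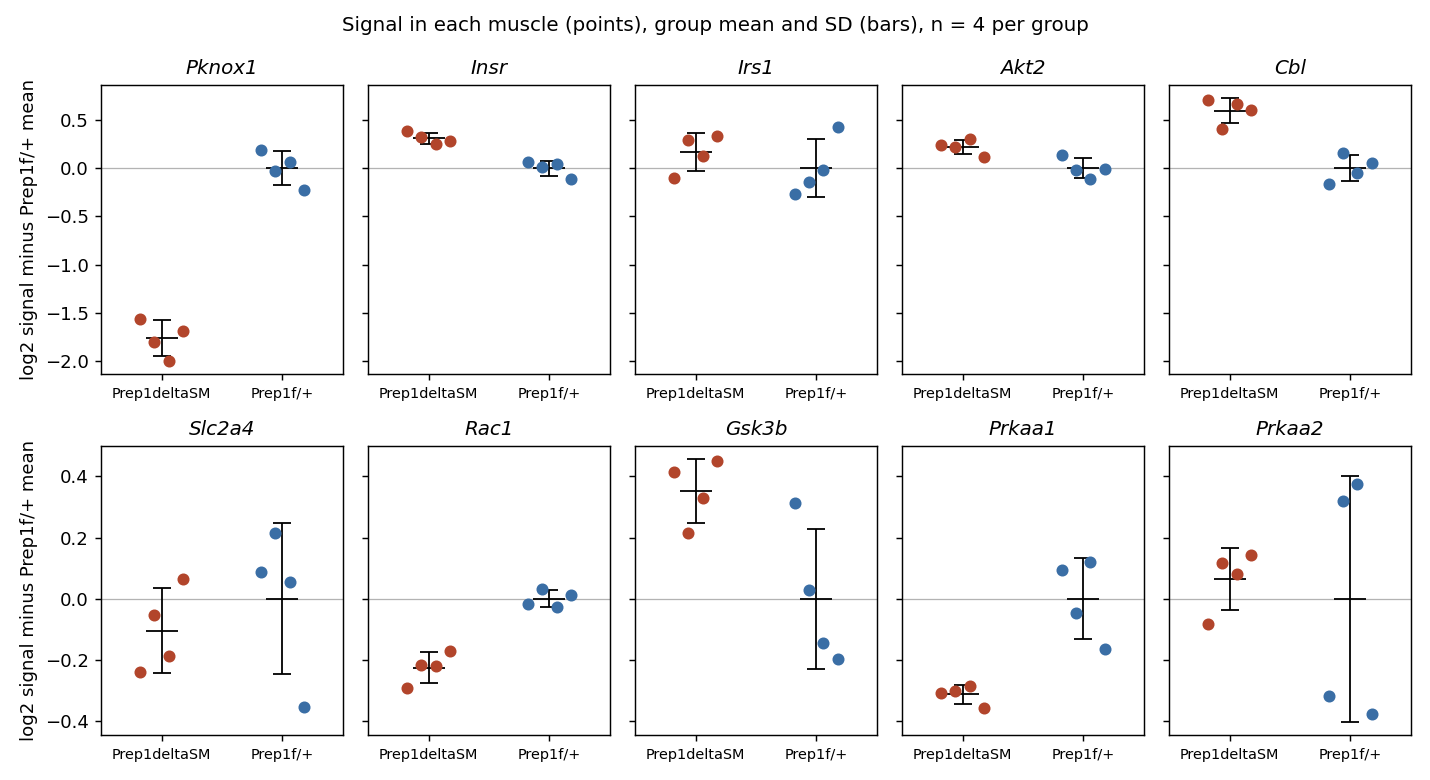
Log2 signal of single muscles minus the Prep1f/+ mean for Pknox1 and 9 genes of the set, with group mean and SD (n = 4 each); both rows have their own axis range, so Pknox1 sets the scale of the upper row. Prep1deltaSM points lie wholly above the Prep1f/+ points for Insr and Cbl and wholly below for Rac1 and Prkaa1, while Prkaa2 in Prep1f/+ splits into 2 high and 2 low muscles.

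Between the receptor and Akt, the 7 genes gave 4 differences above 0 and 3 below, with a median of 0.06, and 1 of them had an unadjusted p under 0.05. Akt2, the Akt isoform that is most tied to glucose uptake, had signals of 2.98, 2.96, 3.04 and 2.86 in Prep1deltaSM muscle, against 2.87, 2.73, 2.63 and 2.74 in Prep1f/+ muscle. The groups met only at Prep1deltaSM muscle 4 and Prep1f/+ muscle 1, and the difference was 0.22 ± 0.09 (adjusted p = 0.273); its unadjusted p by limma was 0.032, and 0.080 with slide as a block. Its second probe gave -0.02 ± 0.09, and the ratio of the second probe to the first within an array, on the log2 scale, ran from -0.77 to -0.56 in Prep1deltaSM muscle, against -0.54 to -0.36 in Prep1f/+ muscle. The 2 Akt2 probes therefore gave unequal differences, and their mean gave 0.10. Akt1, the more general isoform, gave 0.06 ± 0.09 by its brightest probe and 0.48 ± 0.21 by the other, on which all 4 Prep1deltaSM muscles read between 0.02 and 0.46 and the Prep1f/+ muscles read -0.78, 0.19, -0.49 and 0.01.

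Pdpk1, the kinase that activates Akt, had signals of 2.41, 2.06, 1.44 and 2.13 in Prep1deltaSM muscle, against 1.36, 1.70, 1.93 and 0.68 in Prep1f/+ muscle. The difference of 0.59 ± 0.30 (adjusted p = 0.366 by limma) was above 0 on all 4 slides, from 0.13 to 0.78, but the groups overlapped. The share of all genes with 1 sign on all 4 slides was not counted. Without Prep1f/+ muscle 4 the Pdpk1 difference was 0.35, and with Prep1f/+ muscles 1 and 4 both left out 0.19. The other 2 probes of Pdpk1 gave 0.08 and -0.05. With slide as a block the unadjusted p of Pdpk1 was 0.0063 (adjusted p = 0.218 by limma), against 0.078 without it. Pdpk1 was chosen for this description after its values were seen.

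The PI3-kinase subunits were spread on both sides of 0. Among the regulatory subunits, Pik3r1, which encodes p85 alpha, gave 0.17 ± 0.18, and its other probes gave 0.44, 0.41 and -0.02, the first 2 with unadjusted p of 0.043 and 0.039 and adjusted p of 0.265 and 0.255 over all probes by limma. Pik3r2, which encodes p85 beta, gave -0.20 ± 0.12. Among the catalytic subunits, Pik3ca gave -0.07 ± 0.11 and Pik3cb gave -0.05 ± 0.11. By their brightest probes, none of the 4 had an unadjusted p under 0.05.

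The genes listed as inhibitors of the receptor and its substrates held the lowest p of the set, that of Cbl. Whether Cbl inhibits insulin signalling in this muscle was not tested. Cbl, a ubiquitin ligase that acts on receptor tyrosine kinases and has been linked to insulin signalling in fat cells, had signals of -2.67, -2.97, -2.71 and -2.77 in Prep1deltaSM muscle, against -3.54, -3.22, -3.42 and -3.32 in Prep1f/+ muscle. All Prep1deltaSM values lay above all Prep1f/+ values, and hence on all 4 slides. The difference was 0.59 ± 0.10 or 1.51-fold (adjusted p = 0.119 by limma, rank 49 of 16016 by p). The probe is dim, and the difference was 0.58 with quantile normalization alone. With normexp followed by quantile normalization it was 0.13 (unadjusted p = 0.013, adjusted p = 0.201 by limma). That setting also gave Pknox1 a smaller difference, -0.89. The other Cbl probe was well above background on 1 array only, in Prep1f/+, and was not tested.

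The other genes of this group had no unadjusted p under 0.05. Ptpn1, the phosphatase PTP1B that removes phosphate from the receptor, gave -0.07 ± 0.09. Grb14, an adaptor that blocks the receptor's kinase, gave -0.26 ± 0.16, or -0.14 without Prep1deltaSM muscle 1, and its relative Grb10 gave 0.00 ± 0.15, with 0.21 and 0.43 by its other probes. Socs3, a cytokine-induced suppressor that binds the receptor and Irs proteins, varied most among single muscles: it had signals of 3.30, 1.64, 3.61 and 2.31 in Prep1deltaSM muscle, against 0.77, 4.42, 1.25 and 3.56 in Prep1f/+ muscle. The Socs3 difference was 0.21 ± 0.84, so the muscles of a genotype differed far more from each other than the genotypes did; Socs3 was singled out after its values were seen.

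Of the 6 genes for glucose transporters and their traffic, 2 had differences above 0 and 4 below, with a median of -0.09. Slc2a4, which encodes GLUT4, had signals of 7.95, 8.13, 8.00 and 8.25 in Prep1deltaSM muscle, against 8.28, 8.40, 8.24 and 7.83 in Prep1f/+ muscle. The groups overlapped and the difference was -0.10 ± 0.14, with a 95% confidence interval of -0.42 to 0.21 (adjusted p = 0.732). Prep1f/+ muscle 4 was the lowest of all 8, and without it the difference was -0.22; under quantile normalization it was 0.00. Slc2a1, which encodes the basal transporter GLUT1, gave -0.28 ± 0.15 (adjusted p = 0.406 by limma). It was below 0 on all 4 slides, from -0.47 to -0.01. Its unadjusted p by limma was 0.047 with slide as a block, against 0.107 without it. Without Prep1f/+ muscle 1 the difference was -0.18.

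Rac1, a small GTPase that remodels actin during GLUT4 delivery, had signals of 4.53, 4.61, 4.60 and 4.65 in Prep1deltaSM muscle, against 4.81, 4.86, 4.80 and 4.84 in Prep1f/+ muscle. Each Prep1deltaSM muscle was lower than each Prep1f/+ muscle, and hence on all 4 slides, and both groups were tight. The difference was -0.23 ± 0.07 (adjusted p = 0.218 by limma). It was -0.15 with quantile normalization and -0.11 with normexp followed by quantile normalization. The second Rac1 probe, 8833 bases from the start of the first, read 1.90, 1.70, 2.04 and 2.24 in Prep1deltaSM muscle, against 4.36, 2.05, 1.91 and 4.58 in Prep1f/+ muscle. On this probe Prep1f/+ muscles 1 and 4 stood far above all 6 others, and its difference of -1.25 ± 0.62 was -0.01 with those 2 muscles left out. The brighter probe showed no such step, and its difference was -0.23 with and without them.

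Tbc1d4 and Tbc1d1, the GTPase-activating proteins that hold GLUT4 vesicles back until they are phosphorylated, gave -0.08 ± 0.23 and 0.06 ± 0.31. The other 2 Tbc1d4 probes gave 0.22 and 0.49, and the other Tbc1d1 probe gave 0.25. Rab10, a GTPase that Tbc1d4 keeps inactive, as shown in fat cells, gave 0.18 ± 0.12 by its brightest probe, or 0.11 without Prep1deltaSM muscle 4 and 0.12 without Prep1f/+ muscle 4. Its dimmest probe, designed on the transcript AK045299 and 59334 bases from the start of the brightest, read -0.74, -1.23, -1.25 and -1.75 in Prep1deltaSM muscle, against -2.84, -2.33, -2.50 and -1.83 in Prep1f/+ muscle. That probe did not overlap between groups and gave 1.13 ± 0.26 (adjusted p = 0.108 over 24488 probes by limma), while the 3 others of Rab10 gave 0.10 to 0.20. With Prep1f/+ muscles 1 and 4 left out it gave 1.17. It was singled out after its values were seen, and which Rab10 transcript it reads is not settled by the files.

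**Figure D3:**
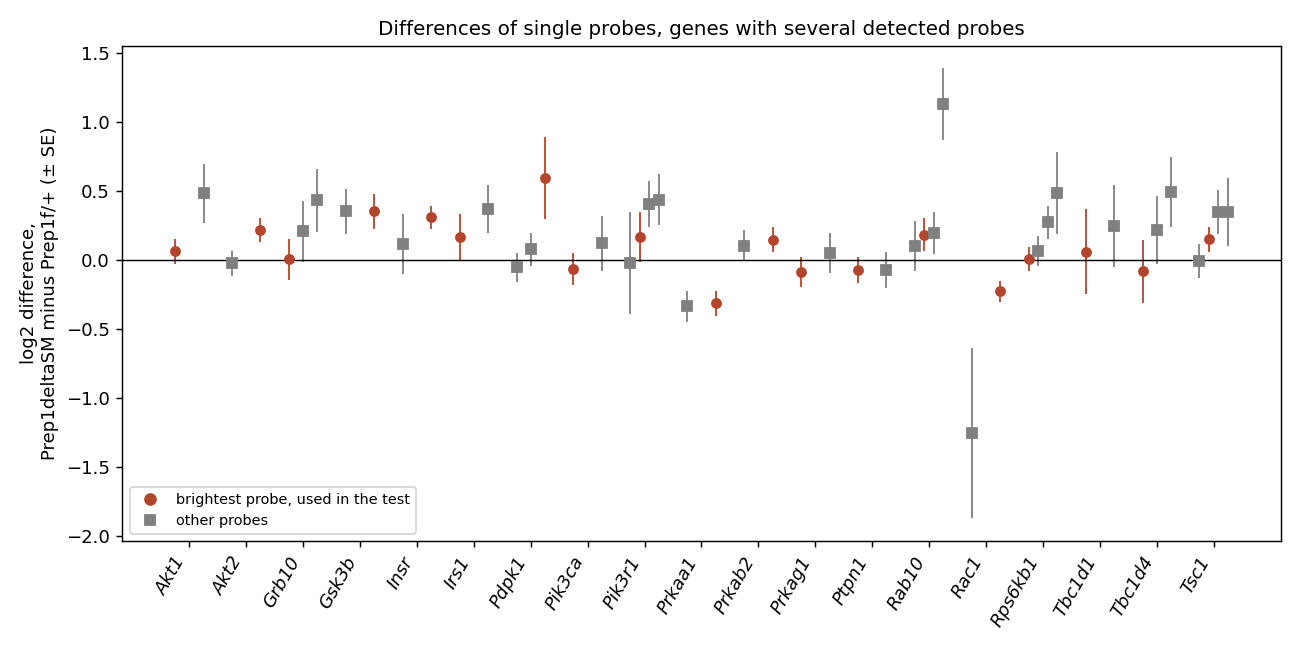
Differences (Prep1deltaSM minus Prep1f/+, log2 ± SE) of single probes for the 19 genes with several detected probes; circles are the brightest probe, used in the test, and squares are the others. Both Prkaa1 probes lie below 0 together, the second Rac1 probe at -1.25 has the widest error of those drawn, and 1 Rab10 probe lies at 1.13.

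Probes of 1 gene share their source and are not replicates. Of the 69 probes of the set, 63 were detected, 42 of them with a difference above 0 and 21 below. Among all detected probes, 45.9% had a difference above 0. An unadjusted p under 0.05 by limma was found for 10 of the 63, beside 17.8% of all probes. For the 19 genes with several detected probes, the probes had the same sign in 12 and differed in sign in 7.

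The glycogen synthase kinases went apart. Gsk3b, which inhibits glycogen synthase until Akt phosphorylates it, had signals of 0.49, 0.29, 0.41 and 0.53 in Prep1deltaSM muscle, against 0.39, 0.11, -0.07 and -0.12 in Prep1f/+ muscle. The difference was 0.35 ± 0.13 (adjusted p = 0.244 by limma) and above 0 on all 4 slides, from 0.14 to 0.53. The groups overlapped through Prep1f/+ muscle 1. The second Gsk3b probe, 55530 bases away, also gave 0.35, with an SE of 0.16. Gsk3a, the other isoform, gave -0.14 ± 0.19, and with single muscles left out it ran from -0.27 to -0.02.

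AMPK is a trimer of a catalytic alpha, a scaffold beta and a nucleotide-binding gamma subunit, and 6 of its subunit genes were read together with Stk11, an upstream kinase. These 7 genes gave 4 differences above 0 and 3 below, with a median of 0.06. Prkaa1, the alpha 1 catalytic subunit, had signals of 0.90, 0.90, 0.92 and 0.85 in Prep1deltaSM muscle, against 1.30, 1.16, 1.32 and 1.04 in Prep1f/+ muscle. The highest Prep1deltaSM muscle was below the lowest Prep1f/+ muscle, and hence each slide gave a value below 0. The Prkaa1 difference was -0.31 ± 0.09 (adjusted p = 0.190 by limma). Its second probe did not overlap between groups either and gave -0.34 ± 0.11. With Prep1f/+ muscles 1 and 4 left out the first probe gave -0.35 and the second -0.17, and with normexp followed by quantile normalization the first gave -0.21. Of the genes of the set with several detected probes, only Prkaa1 had probes that each separated the groups. Of all detected probes, 11.8% did so. The share of all genes whose probes each did so was not counted, and probes of 1 gene are not replicates.

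Prkaa2, the alpha 2 subunit that predominates in skeletal muscle, had signals of 4.52, 4.72, 4.68 and 4.74 in Prep1deltaSM muscle, against 4.28, 4.92, 4.98 and 4.23 in Prep1f/+ muscle. Prep1f/+ muscles 1 and 4 were below and Prep1f/+ muscles 2 and 3 above every Prep1deltaSM muscle, and the difference was 0.06 ± 0.19 (adjusted p = 0.893). With muscles 1 and 4 left out it was -0.28 (adjusted p = 0.264), so its direction rests on those 2 muscles.

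The other AMPK genes had no unadjusted p under 0.05 at the 75th-percentile scaling. The beta subunits Prkab1 and Prkab2 gave 0.20 ± 0.14 and 0.15 ± 0.09. Prkab2 depended on the normalization: it gave 0.23 with quantile normalization (adjusted p = 0.224), 0.25 with normexp followed by quantile normalization (adjusted p = 0.0609) and 0.23 by the authors' values (adjusted p = 0.242), with unadjusted p of 0.014, 0.00038 and 0.018 by limma, and its second probe gave 0.10. The gamma subunit Prkag1 gave -0.09 ± 0.11, and Prkag3, the gamma form typical of fast glycolytic fibres, gave 0.11 ± 0.16. Stk11, which encodes LKB1, the main kinase upstream of AMPK in muscle, gave -0.21 ± 0.11 (adjusted p = 0.392 by limma). It was below 0 on all 4 slides, from -0.49 to -0.02.

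In the mTORC1 branch, none of the 4 genes had an unadjusted p under 0.05. Tsc1 and Tsc2, the complex that restrains the GTPase Rheb, gave 0.15 ± 0.09 and -0.03 ± 0.10. Tsc1 was above 0 on all 4 slides, from 0.05 to 0.28. Rheb itself, which activates mTORC1, gave 0.03 ± 0.09. Rps6kb1, the S6 kinase that mTORC1 activates, gave 0.01 ± 0.08 by its brightest probe and 0.06, 0.27 and 0.48 by its other detected probes.

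**Figure D4:**
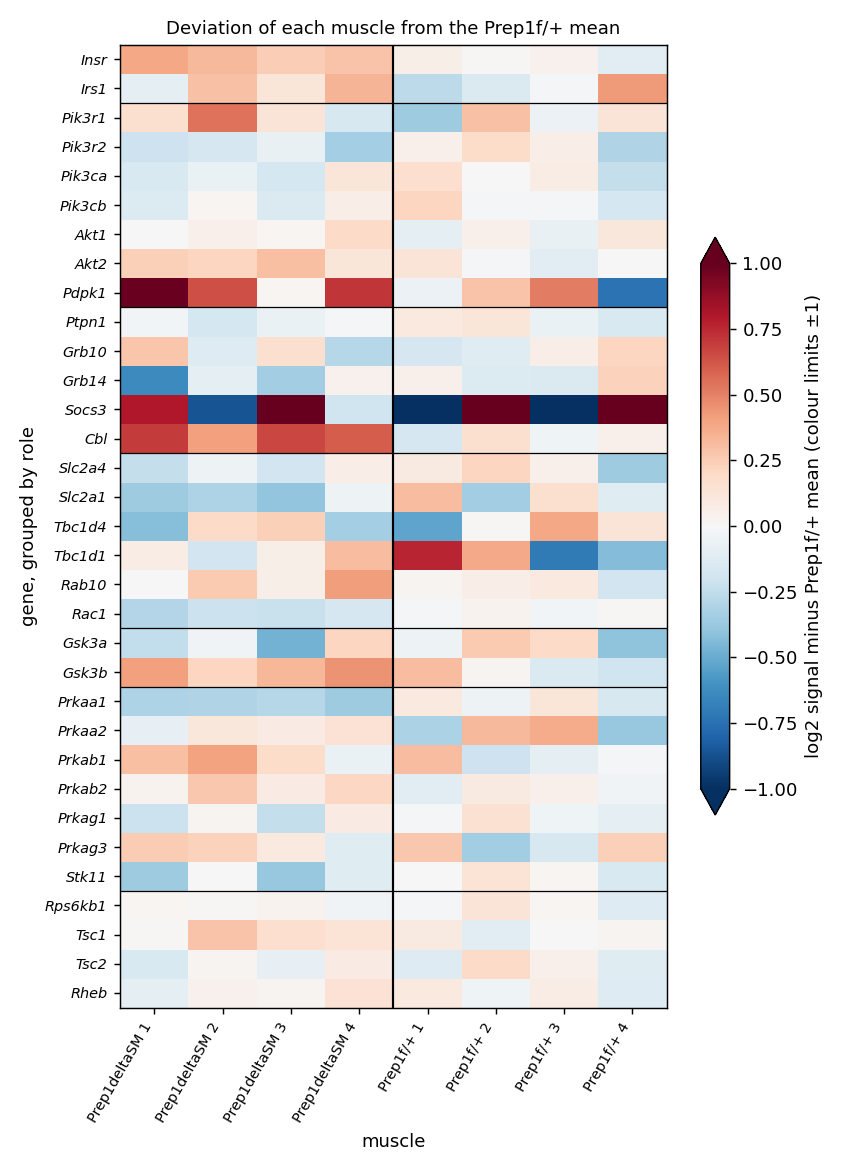
Log2 signal of each muscle minus the Prep1f/+ mean for the 33 genes in order of role, Prep1deltaSM muscles left of the vertical line and Prep1f/+ muscles right of it; colours stop at ±1. All 4 Prep1deltaSM columns lie above the Prep1f/+ mean for Insr, Cbl, Akt2, Gsk3b, Pdpk1, Tsc1 and Prkab2. They lie below it for Rac1, Prkaa1, Pik3r2, Slc2a1 and Ptpn1. Of these genes, only Insr, Cbl, Rac1 and Prkaa1 have groups that do not overlap. Socs3 alternates between muscles in both groups.

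Single muscles set many of the smaller values. Prep1f/+ muscle 4 was the lowest of the 8 for 10 of the 33 genes, with a median deviation of -0.12 from the Prep1f/+ mean, and Prep1f/+ muscle 2 was the highest for 10. Leaving out 1 muscle moved the difference of 23 of the 33 genes by over 1.5 times or across 0 in at least 1 case; the 10 others were Insr, Pik3r2, Akt2, Cbl, Rac1, Gsk3b, Prkaa1, Prkab2, Stk11 and Tsc1.

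With Prep1f/+ muscles 1 and 4 both left out, 9 genes had an unadjusted p under 0.05 (27.3%, beside 16.8% of all genes in the same fit), 5 higher and 4 lower, and none passed the adjusted threshold (limma). The difference moved by over 1.5 times or across 0 for 21 of the 33 genes, which include Prkaa2 and Pdpk1. Among receptor-to-Akt genes it became -0.33 for Pik3r2, 0.05 for Pik3r1, -0.10 for Pik3ca and -0.03 for Pik3cb, and among inhibitors -0.12 for Grb14, 0.03 for Grb10 and -0.12 for Socs3. All of these but Socs3 kept their sign.

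Among glucose transport genes the difference without those 2 muscles was -0.24 for Slc2a4, -0.28 for Tbc1d4, 0.22 for Tbc1d1 and 0.10 for Rab10, and it was -0.36 for Gsk3a. Among AMPK subunits it was 0.37 for Prkag3, 0.35 for Prkab1, 0.08 for Prkab2 and -0.14 for Prkag1. In the mTORC1 branch it was -0.15 for Tsc2, 0.02 for Rheb and -0.07 for Rps6kb1, of which Rps6kb1 changed sign.

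Markers of other cell types are given as list means, on the log2 scale relative to the Prep1f/+ mean. For comparison, 62.7% of all genes had a difference below 0. All 8 tested adipocyte markers were on the lower side by group mean. Their list means were 0.47, -2.16, 0.34 and -1.59 in Prep1deltaSM muscles 1 to 4, against -0.77 to 0.58 in Prep1f/+ muscle. The lower side thus rests on Prep1deltaSM muscles 2 and 4. All 9 leukocyte markers were on the lower side, with -0.89 to -0.11 in Prep1deltaSM muscle, against -0.33 to 0.34 in Prep1f/+ muscle. Of the 10 fibroblast and tendon markers, 9 were on the lower side, with -1.08 to 0.17 in Prep1deltaSM muscle, against -0.19 to 0.17 in Prep1f/+ muscle.

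Fibre type markers differed between slow and fast lists. All 9 slow-fibre markers were on the lower side, with -1.04 to -0.02 in Prep1deltaSM muscle, against -0.63 to 0.81 in Prep1f/+ muscle, whereas the fast-fibre list means lay between -0.05 and 0.06 in Prep1deltaSM muscle, against -0.13 and 0.08 in Prep1f/+ muscle. Erythroid markers ran from 0.03 to 1.96 in Prep1deltaSM muscle, against -0.52 to 1.12 in Prep1f/+ muscle. Endothelial markers ran from -0.11 to 0.14 in Prep1deltaSM muscle, against -0.15 to 0.24 in Prep1f/+ muscle, and Schwann cell markers from -0.15 to 0.09 in Prep1deltaSM muscle, against -0.27 to 0.64 in Prep1f/+ muscle. No marker passed the adjusted threshold (limma). An unadjusted p under 0.05 was found for 3 leukocyte (33.3%) and 3 fibroblast and tendon markers (30%), beside 15.9% of all genes. It was also found for 2 endothelial markers (22.2%, 1 higher and 1 lower) and 1 slow-fibre marker (11.1%). No fast-fibre, adipocyte, erythroid or Schwann cell marker had one. The part of these cell types in the values of the insulin and AMPK genes was not tested.

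The surrounding pathway was read from 80 further genes, of which 76 were tested, and none passed an adjusted p of 0.05 (limma). Differences were above 0 for 33 (43.4%, beside 37.3% of all genes) and below 0 for 43. The median was -0.03, beside -0.07 for all genes, and 52 of the 76 lay above that all-gene median. An unadjusted p under 0.05 was found for 6 (7.89%, beside 15.9% of all genes), all 6 of them higher. Among AMPK genes, Map3k7, the kinase TAK1 reported to act upstream of AMPK, gave 0.50 ± 0.12 (adjusted p = 0.166), and Sesn2, a stress-induced activator of AMPK, gave -0.31 ± 0.17. Among genes of GLUT4 traffic and glucose handling, Vamp3, a vesicle SNARE, gave 0.38 ± 0.09 (adjusted p = 0.160), and Txnip, an arrestin-like protein that limits glucose uptake, gave -0.57 ± 0.28.

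Among insulin and PI3-kinase genes, the phosphatase Ptpn6 gave 0.24 ± 0.09 and the adaptor Grb2 gave -0.15 ± 0.08. Among mTOR genes, Rragc, a GTPase that brings mTORC1 to lysosomes when amino acids are present, gave 0.29 ± 0.10, and Mlst8, a subunit shared by both mTOR complexes, gave -0.12 ± 0.10. These 8 genes were the lowest p of their list in each direction.

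Promoters were read for the core of the Prep1-Pbx recognition sequence. In RefSeq windows of 300 bases around gene starts (GRCm38.p6), 31 of the 34 genes matched, with 39 windows; Rac1, Slc2a4 and Insr had no window. The letters TGACAG, on either strand, were found in 1 of the 39 windows (2.56%), that of Pdpk1, against 19.2% of all 32851 windows. The Pdpk1 window held 3 matches, at 242, 226 and 87 bases before the start, in capitals in the 250 bases printed here; a match describes letters only.
Pdpk1, chr17:24141595-24141844, minus strand: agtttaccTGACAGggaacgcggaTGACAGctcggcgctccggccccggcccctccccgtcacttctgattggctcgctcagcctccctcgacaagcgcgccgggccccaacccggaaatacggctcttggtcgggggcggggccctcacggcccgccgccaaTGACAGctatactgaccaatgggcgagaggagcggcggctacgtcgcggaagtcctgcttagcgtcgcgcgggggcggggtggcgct
Pdpk1 and Tsc2 also share chromosome 17 with Pknox1, with probes 7.50 and 7.01 Mb from the Pknox1 probe in mm9.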

How the data were processed

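Spot intensity as deposited by the authors (gProcessedSignal) was used; per the file headers it was made by Feature Extraction 10.5.1.1, while version 9.1 of the same Agilent software stands in the submitters' processing notes, a conflict that was not settled. The authors' deposited table of processed intensity (32812 rows, linear, column medians 12.7 to 13.2, not centred) served as an alternative for the 26231 rows within 0.1 log2 of quantile-normalized scanner values; how the other rows were made stays unknown.

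Flagged spots (non-uniform or population outlier, 49 to 100 per array) were set missing, each array was scaled to its 75th percentile, spots of a probe were averaged, and a probe was kept if well above background on 4 or more of the 8 arrays (24488 of 41174). The brightest kept probe stood for a gene. The genotypes were compared in limma 3.58.1 (lmFit, eBayes; R 4.3.3); single genes also by an exact two-sided permutation test. The fit was also run on simulated data in which no muscles stood apart. No result here rests on that run. All arrays were scanned on 1 day. Labels do not pair mice, so replicate numbers follow accession order.

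Members, roles, pathway and marker lists were chosen with earlier results of these data known. Named with every muscle's value were Insr, Irs1, Slc2a4, Akt2, Prkaa2 and each gene with an unadjusted p under 0.05 or groups that do not overlap; Pdpk1, Socs3 and single probes were added after their values were seen; other members are named with their difference, and of each other pathway list the lowest p per direction. Alternatives were quantile normalization, normexp (offset 50) followed by quantile normalization, median centring, other probe filters and rules, slide as a block, the authors' table, eBayes with trend and robust settings, and each array left out; leaving out Prep1f/+ muscles 1 and 4 together was chosen after seeing the data.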

Additional observations from a re-analysis of the deposited data

How the results depend on the processing

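No gene of the set passed an adjusted p of 0.05 under any of 19 alternatives (limma). The 8 arrays limit precision, and dim probes such as that of Cbl depend on the background correction. No paired analysis was possible because the labels do not pair mice; slide was used as a block instead. Genes past the adjusted threshold in all numbered 31 with normexp followed by quantile normalization (1 with quantile normalization alone), 20 with the trended robust fit, 0 with slide as a block, 0 without Prep1f/+ muscles 1 and 4, and 0 to 5 with single arrays left out. Genes of the set at an unadjusted p under 0.05 numbered 11 with normexp and quantile normalization (7 higher, 4 lower; 33.3%, beside 15.6% of all genes), 7 with quantile normalization alone (6 higher, 1 lower; 21.2% beside 15.3%), 7 with slide as a block (21.2% beside 15.8%), where Slc2a1 and Pdpk1 came in and Akt2 dropped out, 4 with median centring (2 and 2; 12.1% beside 15.7%) and 1 by the authors' values, which cover 12 of the 33 (8.33% beside 15.0%). Genes whose groups do not overlap numbered 7 with quantile normalization (21.2% beside 10.1%), 1 by the authors' values (8.33% beside 9.98%) and 12 without muscles 1 and 4, which leaves 2 muscles in that group (36.4% beside 31.4%). The 12 genes covered by the authors' values do not include Insr, Akt2, Gsk3b, Prkaa1, Rac1 or Cbl. Those values therefore cannot test the genes with an unadjusted p under 0.05 or without overlap in the main fit. The median difference was 0.11 with the mean of probes, -0.033 without muscles 1 and 4, and -0.035 to 0.045 with single arrays left out. Pknox1 stayed at -1.76 with slide as a block (adjusted p = 0.062) and was -1.78 without muscles 1 and 4 (adjusted p = 0.0605). It ran from -1.84 to -1.68 with single arrays left out, with an adjusted p above 0.05 without Prep1deltaSM 2, Prep1f/+ 2 or Prep1f/+ 3 (limma). Normexp followed by quantile normalization gave Pknox1 a smaller difference of -0.89 (adjusted p = 0.0015 by limma).

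Signs of 20 of the 33 genes held throughout, the constant shift of median centring included. Quantile normalization gave Slc2a4 1.9e-05 and Tsc2 0.046; normexp followed by quantile normalization gave Pik3ca 0.0029, Slc2a4 0.0044 and Prkag1 0.015; median centring, which shifts every gene by -0.032, carried Grb10 to -0.027, Rps6kb1 to -0.024 and Rheb to -0.00064; the mean of probes gave Pik3ca 0.026 and Tbc1d4 0.21; the authors' values gave Tsc2 0.045; and leaving out muscles 1 and 4 gave Socs3 -0.12, Prkaa2 -0.28 and Rps6kb1 -0.066. With single arrays left out, Tbc1d4 ran from -0.26 to 0.045, Grb10 from -0.087 to 0.10, Tsc2 from -0.072 to 0.035, Socs3 from -0.37 to 0.85, Rps6kb1 from -0.035 to 0.051, Tbc1d1 from -0.17 to 0.31, Rheb from -0.013 to 0.071, Pik3cb from -0.11 to 0.021, Prkaa2 from -0.062 to 0.19 and Prkag3 from -0.00050 to 0.20. The cause of the changes other than that shift was not tested.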
